A study of Mus musculus with 10 samples.

Results

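The 6 genes read here mark mast cells and basophils: Gata2, Fcer1a, Cpa3, Gzmb, Mcpt8 and Hdc. They were chosen by name, with earlier results of these data known. Each of the 6 was found through the gene symbol that the platform annotation gives each probe, and was measured by 1 probe. They are 6 of 15097 genes with a symbol, among 20243 features (a feature is a gene, or a probe without a single gene name). The cells were mouse FDB1 cells, a myeloid line that grows in interleukin-3 (IL-3), carrying either of 2 mutant receptors. FI-Delta is a constitutively active form of the common beta chain, the signalling subunit shared by the IL-3, GM-CSF and IL-5 receptors, and FI-Delta Y577F is the same mutant with a tyrosine of its cytoplasmic tail replaced by phenylalanine. The 4 RNA groups were Y577F cells 72 h after IL-3 was washed out, Y577F cells at 0 h, FI-Delta cells at 72 h and FI-Delta cells at 0 h. At 0 h the cells came from medium with IL-3 and serum, and for the next 72 h no factor was added. Each line was represented by 2 cultures.

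All 4 groups carried an activated receptor, so none shows FDB1 cells without it, and no group was held in IL-3 for 72 h. A change between the times therefore covers the loss of IL-3 and the time in culture together, which cannot be told apart. The labels do not say whether a line was a clone or a pool. Each array was hybridised with 2 RNAs, so the values are log2 ratios between groups and hold no level of a gene by itself. Whether Kit, Ms4a2 or any other marker of mast cells or basophils was present or absent in these cells could therefore not be checked.

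Mast cells and basophils are granulocytic cells of allergy and parasite defence that carry the high-affinity receptor for IgE on their surface. When antigen cross-links that receptor they release granules holding histamine and proteases. The transcription factor GATA2 is needed for mast cell and basophil development and binds the short DNA motif named for the GATA family. Fcer1a encodes the IgE-binding alpha chain of the receptor. Cpa3 encodes carboxypeptidase A3, a granule exopeptidase of mast cells. Mcpt8 encodes mast cell protease 8, the granule serine protease that marks mouse basophils. Gzmb encodes granzyme B, best known from cytotoxic lymphocytes and also made by mouse mast cells and basophils. Hdc encodes histidine decarboxylase, the enzyme that makes histamine, which neutrophils and their precursors can also express.

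The 250 bases before the transcription start are shown for 4 of the genes. These were Cpa3, Gzmb and Fcer1a, which differed most between the lines, and Hdc, which differed between them in the opposite direction. The sequences are from RefSeq on build GRCm38.p6, 5′ to 3′ on the gene's own strand, and capitals mark a GATA motif. Cpa3 is on chromosome 3 (chr3:20242182-20242431, minus strand), Gzmb on chromosome 14 (chr14:56262335-56262584, minus strand), Fcer1a on chromosome 1 (chr1:173227230-173227479, minus strand) and Hdc on chromosome 2 (chr2:126618679-126618928, minus strand).
Cpa3: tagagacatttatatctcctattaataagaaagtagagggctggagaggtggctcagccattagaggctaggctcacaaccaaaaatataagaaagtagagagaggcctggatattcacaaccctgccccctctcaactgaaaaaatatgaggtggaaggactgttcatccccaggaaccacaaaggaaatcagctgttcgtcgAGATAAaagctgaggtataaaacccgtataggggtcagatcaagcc
Gzmb: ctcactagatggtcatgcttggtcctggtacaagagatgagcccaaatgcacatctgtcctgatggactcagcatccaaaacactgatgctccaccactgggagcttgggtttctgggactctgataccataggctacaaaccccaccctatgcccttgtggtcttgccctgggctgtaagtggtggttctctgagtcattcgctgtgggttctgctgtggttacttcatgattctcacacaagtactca
Fcer1a: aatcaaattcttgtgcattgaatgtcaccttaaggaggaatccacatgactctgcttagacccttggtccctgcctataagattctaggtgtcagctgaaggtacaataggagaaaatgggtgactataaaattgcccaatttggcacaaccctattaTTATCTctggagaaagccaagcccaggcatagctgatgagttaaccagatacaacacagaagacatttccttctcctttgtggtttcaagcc
Hdc: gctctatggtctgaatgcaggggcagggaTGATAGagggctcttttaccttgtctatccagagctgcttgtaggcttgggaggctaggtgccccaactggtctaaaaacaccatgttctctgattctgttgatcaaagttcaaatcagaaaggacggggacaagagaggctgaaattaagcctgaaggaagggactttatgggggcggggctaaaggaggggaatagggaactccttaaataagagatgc
The search used 4 spellings of 6 letters on both strands: AGATAA or the same with a first T (TGATAA), and these with a final G (AGATAG or else TGATAG). Cpa3 held AGATAA 46 bases before its start, on its own strand. Fcer1a held the same motif on the opposite strand, read as TTATCT, 92 bases before its start. Hdc held TGATAG 221 bases before its start. No match was found in the windows of Gzmb, Mcpt8 (chromosome 14) or either of the 2 start sites of Gata2 (chromosome 6). Thus 3 of the 7 windows (42.9%) held a match, against 8714 of 32817 windows over all genes (26.6%). A match is a string of letters and does not show binding, and a window without one says nothing of GATA2 elsewhere at the gene.

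In all, 10 arrays joined the 4 groups in a ring: 2 for Y577F cells at 72 h against 0 h, 3 for FI-Delta cells at 72 h against 0 h, 2 for Y577F against FI-Delta cells at 72 h and 3 for the same lines at 0 h. Each comparison held both dye orientations. Arrays 1 and 2 of the FI-Delta time comparison carried the same 2 RNAs with the dyes exchanged and were counted as 1 hybridisation. Log base and sign are not stated with the values; log2 of Cy5 over Cy3 was taken from the order of the titles, so each direction below is the likely one. After turning, arrays of a comparison correlated across features at 0.63 for the Y577F time comparison, 0.24 to 0.54 for the FI-Delta one, 0.52 for the lines at 72 h and -0.04 to 0.36 for the lines at 0 h. Spot intensities were not used here, so the signal behind each ratio is unknown.

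In each line 5 of the 6 genes fell over 72 h, with a different exception in each line. Cpa3 and Gzmb fell by 2.57 and 2.67 on the log2 scale in FI-Delta cells, the third and second lowest of 20243 features there, and in Y577F cells they fell by 0.77 and 0.74. Hdc fell in Y577F cells and was not called in FI-Delta cells, while Fcer1a fell in FI-Delta cells and was not called in Y577F cells. At 72 h Cpa3, Gzmb and Fcer1a were 4.91, 6.91 and 4.98 times higher in Y577F cells than in FI-Delta cells, and Hdc was 2.37 times lower. A gene is called here when its p-value from limma, adjusted by Benjamini-Hochberg over all features, is under 0.05. In cell populations such as these, fewer cells that make a transcript and less of it per cell cannot be told apart.

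Read against all features, 5 of 6 genes were called lower at 72 h in Y577F cells, where 8.75% of features were called lower and 9.28% higher. In FI-Delta cells 5 of 6 were called lower, where 2.97% of features were called lower and 5.19% higher. Between the lines at 72 h, 4 were called higher and 1 lower in Y577F cells, where 6.44% of features were called higher and 6.45% lower. At 0 h, 3 were called higher and 1 lower, against 0.934% and 0.484% of features. The change over 72 h itself differed between the lines for 4 genes, 3 with a higher change in Y577F cells and 1 with a lower change, where 4.33% and 4.91% of features were called. The median change of the 6 genes was -0.76 in Y577F cells and -1.26 in FI-Delta cells, where the median over all features was 0.0073 and -0.0055. These comparisons share RNA groups, so their counts are not independent of each other. Because the 6 genes were chosen with earlier results of these data known, the counts and shares describe them and do not test them as a set.

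**Figure D1:**
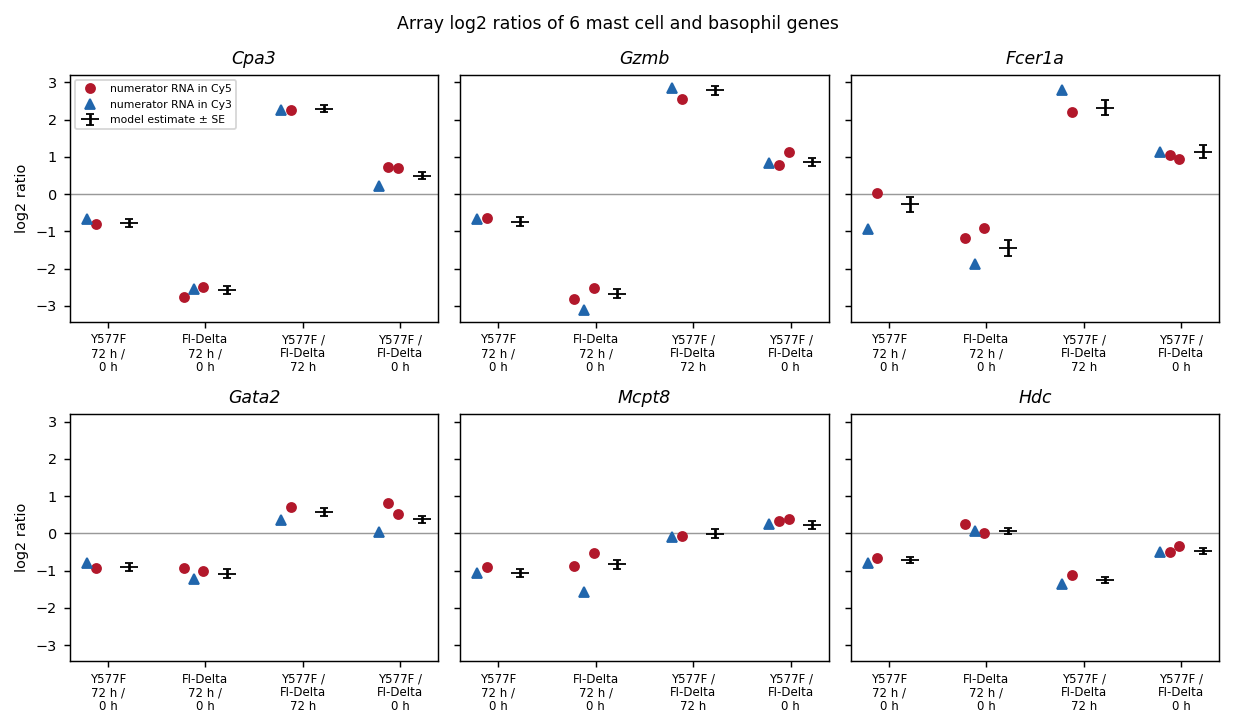
Log2 ratios of the 6 genes on the 10 arrays (y axis), grouped by comparison (x axis) and turned so that 72 h is over 0 h and Y577F over FI-Delta; circles and triangles give the dye of the numerator and the cross is the limma estimate ± SE. All 3 FI-Delta time arrays put Cpa3 and Gzmb at -2.50 or below, and both Y577F time arrays put them between -0.81 and -0.65.

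Gata2 fell in both lines. The Y577F arrays gave log2 ratios of -0.80 and -0.92 at 72 h over 0 h, and the FI-Delta arrays gave -0.92, -1.22 and -1.02. All 5 ratios were negative and the lines' values met at -0.92. The fitted change was -0.90 ± 0.11 (SE) in Y577F cells (adjusted p = 0.000162) and -1.08 ± 0.11 in FI-Delta cells (adjusted p = 0.000131). The difference between these changes was 0.18 ± 0.13 (adjusted p = 0.417), with a 95% interval of -0.09 to 0.46. Gata2 was thus measured as falling in each line, and a difference in its fall as large as 0.46 lies within the interval.

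Between the lines, Gata2 gave ratios of 0.36 and 0.70 at 72 h and of 0.04, 0.80 and 0.52 at 0 h, Y577F over FI-Delta. All were above 0, and the 0 h arrays spread widely. At 72 h it was 1.48 times higher in Y577F cells (log2 0.57 ± 0.11, adjusted p = 0.00512). This call was lost without array 2 of the 72 h comparison (0.58, adjusted p = 0.0506) and with culture number as a block (0.49, adjusted p = 0.0549). The culture numbers are a reading of the labels, taken as 1 and 2 for FI-Delta and 3 and 4 for Y577F cells; on arrays between the lines with Y577F RNA in Cy5 the labels attach them to the opposite line, so every value with the block rests on that reading. At 0 h the difference of 0.38 ± 0.10 was not called (adjusted p = 0.107).

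Fcer1a, the IgE-binding chain, varied widely between arrays. Its ratios over 72 h were -0.93 and 0.03 in Y577F cells and -1.19, -1.89 and -0.90 in FI-Delta cells. The FI-Delta arrays all lay well below 0, while the 2 Y577F arrays differed by 0.96, with 1 of them near 0. The fitted change was -0.27 ± 0.20 in Y577F cells (adjusted p = 0.439, 95% interval -0.71 to 0.17). In FI-Delta cells it was -1.44 ± 0.21, a 2.72-fold fall (adjusted p = 0.00118). The changes differed by 1.18 ± 0.23 (adjusted p = 0.00848). From the time arrays alone, without the rest of the ring, that difference was 0.80 ± 0.32 and was not called (adjusted p = 0.316).

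Y577F cells had more Fcer1a RNA at both times. The ratios were 2.81 and 2.20 at 72 h and 1.14, 1.06 and 0.93 at 0 h, so each 72 h array lay above each 0 h array. The fitted differences were 2.32 ± 0.20 at 72 h (adjusted p = 1.46e-05) and 1.14 ± 0.18 at 0 h (adjusted p = 0.00859), the tenth and the seventh highest of all features. The 0 h call was lost without array 1 of that comparison (1.09, adjusted p = 0.184) and with the culture block (1.10, adjusted p = 0.225). Around the ring the 2 paths from FI-Delta cells at 0 h to Y577F cells at 72 h gave 1.28 and 0.59, a gap of 0.69, larger than for 98.8% of features, where the median gap was 0.15. The measured fall and the measured differences of Fcer1a therefore do not add up as closely as those of most features.

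Cpa3, the carboxypeptidase, fell in both lines and fell more in FI-Delta cells. Its ratios over 72 h were -0.66 and -0.81 in Y577F cells and -2.76, -2.55 and -2.50 in FI-Delta cells. No Y577F array overlapped the FI-Delta arrays. The fitted change was -0.77 ± 0.10 in Y577F cells (adjusted p = 0.000246) and -2.57 ± 0.10 in FI-Delta cells (adjusted p = 6.77e-07), a fall of 1.71-fold and of 5.96-fold. The difference of 1.80 ± 0.12 was called (adjusted p = 1.05e-05).

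The 2 arrays at 72 h gave Cpa3 ratios of 2.25 and 2.26, Y577F over FI-Delta, and the 3 arrays at 0 h gave 0.22, 0.74 and 0.69. At 72 h the fitted difference was 2.29 ± 0.10 (adjusted p = 9.00e-08). At 0 h it was 0.49 ± 0.09 (adjusted p = 0.0206), about the size of the spread between the 0 h arrays, of 0.52. The 0 h call was lost without any 1 of the 3 arrays of that comparison, without array 1 of the 72 h comparison, without array 2 of the Y577F time comparison and with the culture block, with values from 0.32 to 0.63.

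Gzmb, granzyme B, also fell in both lines and more in FI-Delta cells. Over 72 h the ratios were -0.66 and -0.65 in Y577F cells and -2.82, -3.12 and -2.51 in FI-Delta cells. The fitted change was -0.74 ± 0.12 in Y577F cells (adjusted p = 0.00101) and -2.67 ± 0.12 in FI-Delta cells (adjusted p = 8.77e-07), where it was the second lowest of all features. The lines' changes differed by 1.93 ± 0.14 (adjusted p = 1.34e-05), the eighth highest difference of all features.

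Between the lines Gzmb gave ratios of 2.86 and 2.56 at 72 h and of 0.83, 0.78 and 1.14 at 0 h. Again every array favoured Y577F cells, more so at 72 h. The fitted difference was 2.79 ± 0.12 at 72 h (6.91-fold, adjusted p = 7.19e-08) and 0.86 ± 0.11 at 0 h (1.81-fold, adjusted p = 0.00229). The 0 h call was lost without array 1 of that comparison (adjusted p = 0.0507) and with the culture block (0.74, adjusted p = 0.127).

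Mcpt8, the basophil protease, fell in both lines, and no difference between them was called. Ratios over 72 h were -1.05 and -0.90 in Y577F cells and -0.86, -1.56 and -0.53 in FI-Delta cells, where the arrays with exchanged dyes lay far apart. The fitted change was -1.06 ± 0.12 in Y577F cells (adjusted p = 6.47e-05) and -0.83 ± 0.12 in FI-Delta cells (adjusted p = 0.00123). The difference was -0.24 ± 0.13 (adjusted p = 0.316, 95% interval -0.53 to 0.06). At 72 h the ratios between the lines were -0.10 and -0.08, and the fitted difference was -0.0041 ± 0.12 (adjusted p = 0.987, 95% interval -0.26 to 0.25). The 3 arrays at 0 h gave 0.24, 0.34 and 0.38, with a fitted 0.23 ± 0.10 that was not called (adjusted p = 0.399).

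Hdc, the histamine-making enzyme, differed between the lines in the opposite direction from Cpa3 and Gzmb. Its ratios over 72 h were -0.78 and -0.65 in Y577F cells and 0.26, 0.07 and 0.02 in FI-Delta cells. The lines did not overlap. It fell by 0.72 on the log2 scale in Y577F cells (SE 0.08, adjusted p = 9.19e-05), while the FI-Delta change was 0.06 ± 0.09 (adjusted p = 0.773, 95% interval -0.12 to 0.25). The changes differed by -0.78 ± 0.09 (adjusted p = 0.000426).

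Y577F cells had less Hdc RNA than FI-Delta cells at both times. Ratios were -1.37 and -1.13 at 72 h and -0.51, -0.50 and -0.34 at 0 h, all below 0. The fitted difference was -1.25 ± 0.08 at 72 h (adjusted p = 1.84e-06) and -0.47 ± 0.07 at 0 h (adjusted p = 0.00842). The 0 h call was lost without array 1 (-0.48, adjusted p = 0.136) or array 2 (-0.44, adjusted p = 0.0505) of that comparison and with the culture block (-0.42, adjusted p = 0.264).

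The calls between the lines at 0 h rested on few arrays. Of the 4 genes called at 0 h, 0 were called by limma without array 1 of that comparison, 2 without array 2 and 0 with culture number as a block. At an unadjusted p under 0.05, 5 of all 6 genes passed without array 1 and 4 of the 6 with the block. In the main fit 6 passed, as did 2453 of the 20243 features. The unadjusted counts over all features in the refits are not given here. Over all features the 287 calls at 0 h fell to 57 without array 1 and to 42 with the block. That array was the only 1 of the 3 with FI-Delta RNA in Cy5.

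**Figure D2:**
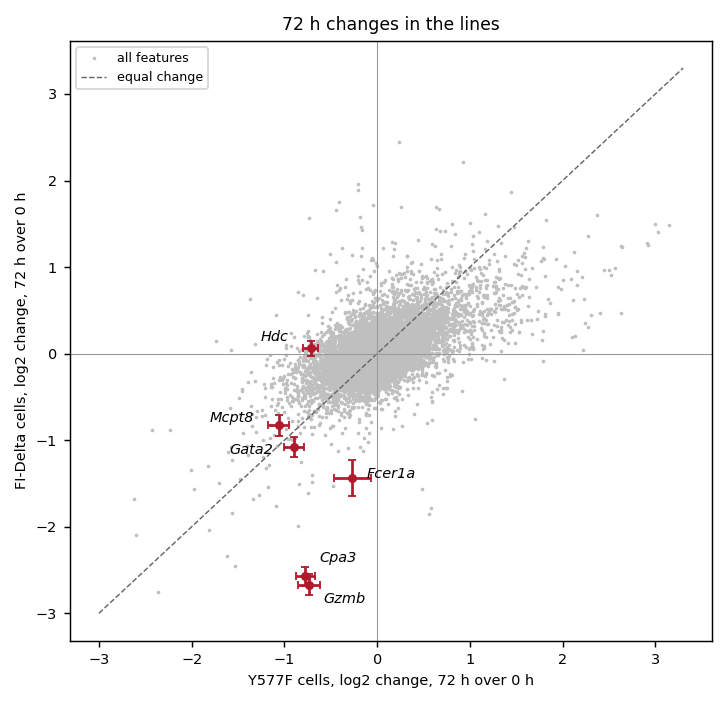
Log2 change over 72 h in Y577F cells (x axis) and in FI-Delta cells (y axis) for all 20243 features, with the 6 genes labelled (bars, SE) and a dashed line of equal change. Cpa3 and Gzmb lie at the bottom, at -2.57 and -2.67 for FI-Delta cells, under the dashed line, Gata2 and Mcpt8 lie near the line and Hdc lies above it.

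Placed on a common scale, relative to the mean of the 4 groups, the genes fell into 3 arrangements. Cpa3 stood at 0.31 in Y577F cells at 72 h, 1.08 in Y577F cells at 0 h, -1.98 in FI-Delta cells at 72 h and 0.59 in FI-Delta cells at 0 h (SE 0.06 to 0.07). Its order was Y577F 0 h, FI-Delta 0 h, Y577F 72 h, FI-Delta 72 h, and the middle pair did not differ beyond their error (difference 0.28, adjusted p = 0.159). Gzmb stood at 0.54 in Y577F cells at 72 h, 1.28 in Y577F cells at 0 h, -2.25 in FI-Delta cells at 72 h and 0.42 in FI-Delta cells at 0 h (SE 0.07 to 0.08), with Y577F 72 h and FI-Delta 0 h not separated (adjusted p = 0.695). Between those 2 groups 12.9% of all features were called, in either direction. For both, FI-Delta cells at 72 h lay far below the other 3 groups. Y577F 0 h also lay above the group next to it, by 0.49 for Cpa3 and 0.74 for Gzmb (limma, adjusted p = 0.0206 and 0.00101). For Cpa3 this step is the 0 h difference whose call was lost in several refits.

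Fcer1a was arranged by line. Its levels were 0.73 and 1.00 in Y577F cells at 72 h and 0 h, against -1.59 and -0.14 in FI-Delta cells at 72 h and 0 h (SE 0.12 to 0.13). Both Y577F groups lay above both FI-Delta groups, the 2 Y577F groups were not separated, and the lower of them exceeded FI-Delta 0 h (adjusted p = 0.0268). No array joined Y577F 72 h and FI-Delta 0 h directly, and the 2 paths around the ring between them gave 1.28 and 0.59. Hdc was arranged by line the other way, at -0.79 and -0.07 in Y577F cells at 72 h and 0 h, against 0.46 and 0.40 in FI-Delta cells (SE 0.05). The 2 FI-Delta groups were not separated, and Y577F 0 h and Y577F 72 h each lay below the group before them.

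Gata2 and Mcpt8 were arranged by time. Gata2 stood at -0.21 in Y577F cells at 72 h, 0.69 in Y577F cells at 0 h, -0.78 in FI-Delta cells at 72 h and 0.30 in FI-Delta cells at 0 h (SE 0.07). Its 0 h groups were not separated, and FI-Delta 0 h exceeded Y577F 72 h (adjusted p = 0.0187), which exceeded FI-Delta 72 h. Mcpt8 stood at -0.47 and 0.59 in Y577F cells at 72 h and 0 h, and at -0.47 and 0.36 in FI-Delta cells at 72 h and 0 h (SE 0.07 to 0.08). Neither its 2 upper nor its 2 lower groups were separated.

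**Figure D3:**
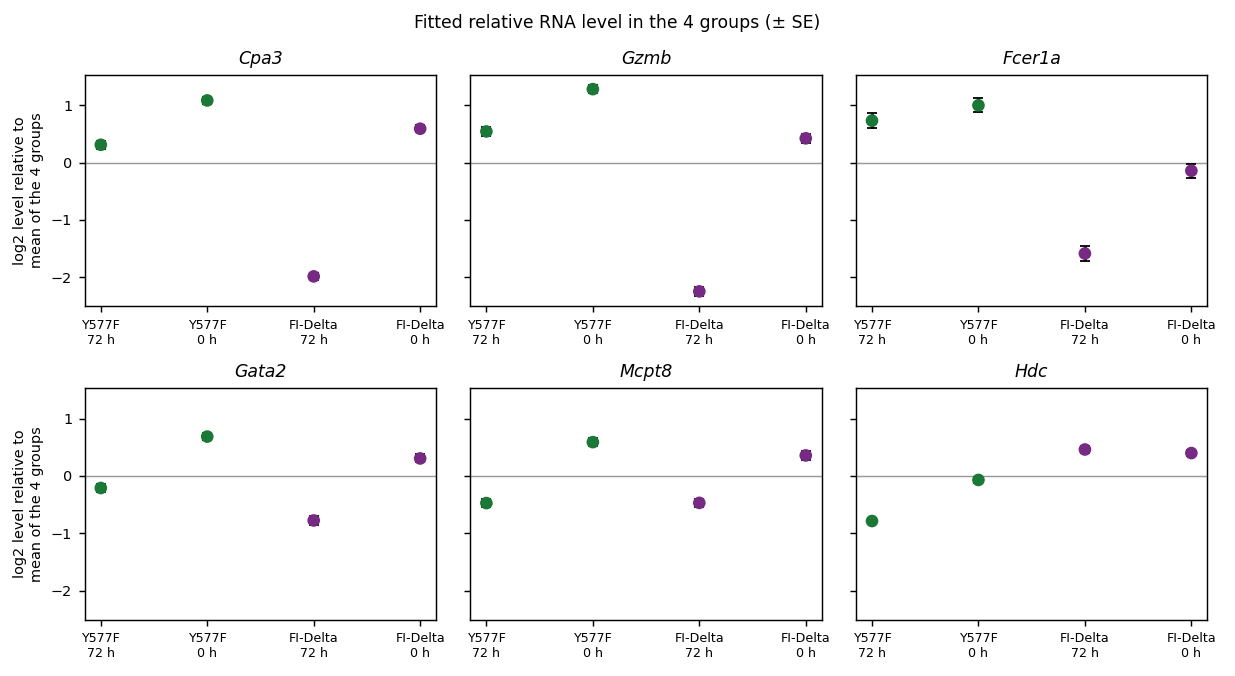
Fitted log2 level of each gene relative to the mean of the 4 RNA groups (y axis) in Y577F cells at 72 h and 0 h and FI-Delta cells at 72 h and 0 h (x axis); bars are SE. Cpa3 and Gzmb are low in FI-Delta cells at 72 h (-1.98 and -2.25), Fcer1a is higher and Hdc lower in Y577F cells, and Gata2 and Mcpt8 are lower at 72 h in both lines.

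Likeness of pattern was measured as the cosine (uncentred correlation) of the 10 turned log ratios, which share cultures and arrays, among 1117 features whose ratios had a root mean square of at least 0.5. It is given as a description. Among the 6 genes it was 0.99 between Cpa3 and Gzmb, 0.92 between Fcer1a and Gzmb, 0.89 between Cpa3 and Gata2, and 0.88 both between Cpa3 and Fcer1a and between Gata2 and Mcpt8. Hdc was at -0.71 with Fcer1a, -0.56 with Gzmb, -0.49 with Cpa3, -0.18 with Gata2 and 0.17 with Mcpt8.

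Outside the 6, the genes most like Cpa3 and like Gzmb included Dpp6, a dipeptidyl peptidase-like protein of potassium channels, at 0.99 for both. Pdgfrb, a receptor for platelet-derived growth factor, followed for Cpa3 (0.98), and Cd34, a surface protein of blood progenitors, for Gzmb (0.98). Dpp6 changed by -0.47 in Y577F cells and -1.53 in FI-Delta cells, and Cd34 by -0.15 and -1.12. Fcer1a was most like Padi2 (0.97), which converts arginine to citrulline in proteins, Scin (0.96), an actin-severing protein, and Tal1 (0.96), a transcription factor that works with GATA factors. Gata2 was most like Abca2, Npl and F2r (0.97, 0.97 and 0.96), of which F2r encodes a thrombin receptor and changed by -1.62 in Y577F cells and -2.34 in FI-Delta cells. Mcpt8 was most like Apex1, a DNA repair endonuclease, Sapcd1 and Ankrd10 (0.96, 0.95 and 0.95). Hdc was most like Ctsg, Rasgrp2 and Mpo (0.99, 0.98 and 0.97), and Ctsg and Mpo encode granule proteins of neutrophil precursors.

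The wider set of mast cell and basophil genes did not move as a block. Of 21 measured genes of 25 listed, 5 were called higher and 3 lower over 72 h in Y577F cells (median -0.02). In FI-Delta cells 3 were called higher and 3 lower (median -0.05). Of all features, 9.28% were called higher and 8.75% lower in Y577F cells, and 5.19% and 2.97% in FI-Delta cells. Cd200r3, an activating receptor of basophils and mast cells, and Ndst2, which sulphates the heparin of mast cell granules, fell in FI-Delta cells by 0.88 and 0.68. In Y577F cells they changed by 0.18 and -0.12 and were not called. At 72 h both were higher in Y577F cells, by 1.52 ± 0.13 and 0.82 ± 0.09 (adjusted p = 1.62e-05 and 7.12e-05), and the difference between the changes was called for both (1.05 and 0.57). For Ndst2 the call of that difference was lost without array 2 of the FI-Delta time comparison.

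Srgn, the core protein of granule proteoglycans, fell by 0.72 in Y577F cells and by 0.54 in FI-Delta cells, where the call was lost without array 2 of the time comparison. Il4, a cytokine of both cell types, fell by 0.60 in Y577F cells and changed by -0.06 in FI-Delta cells without a call. Hpgds, which makes prostaglandin D2 in mast cells, rose by 0.69 in Y577F cells and by 0.35 in FI-Delta cells (adjusted p = 0.000181 and 0.0337), and the difference was not called (0.34, adjusted p = 0.055). Cd63, a protein of granule membranes, rose by 0.75 in Y577F cells, a call lost without array 1 of that comparison, and changed by 0.29 in FI-Delta cells without a call. Il13, another cytokine, was lower in Y577F cells at 72 h (-0.73). For Alox5, which starts leukotriene synthesis, the change was lower in Y577F cells, by -0.65 as a difference between the changes. Alox5ap rose by 0.39 in Y577F cells and by 0.46 in FI-Delta cells. Its FI-Delta call was lost without array 3 of the FI-Delta time comparison. Tph1 was higher in Y577F cells at 72 h (0.36), a call lost without array 2 of the 72 h comparison.

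Kit and Ms4a2, markers listed for mast cells and basophils, and the chymases and tryptases are given outside the naming rule, with their values known. Kit, the receptor for stem cell factor, changed by 0.35 in Y577F cells (adjusted p = 0.0104, lost without array 1 of that comparison) and by 0.03 in FI-Delta cells. Ms4a2, the beta chain of the IgE receptor, changed by -0.12 in Y577F cells and -0.15 in FI-Delta cells, and was called in none of the 5 comparisons. The mast cell proteases Cma1, Mcpt1, Mcpt2, Mcpt4, Mcpt9, Tpsab1 and Tpsb2 were likewise called in none. A ratio near 0 is also what a probe without signal gives, so these values do not show whether the proteases were made. The 5 genes called higher in Y577F cells became 1 without array 1 of that comparison. The 3 called higher in FI-Delta cells became 0 without array 3 of that comparison and 1 without array 2, without array 1 at 0 h or without array 1 at 72 h.

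Below the IgE receptor, single signalling genes moved in opposite directions. Of 14 genes measured of 17 listed, 4 were called higher and 1 lower over 72 h in Y577F cells, and also 4 and 1 in FI-Delta cells. Fcer1g, the signalling gamma chain that the IgE receptor shares with other Fc receptors of myeloid cells, rose by 1.32 ± 0.09 in Y577F cells (adjusted p = 2.53e-06) and by 0.87 ± 0.10 in FI-Delta cells (adjusted p = 0.000192). In FI-Delta cells its direction was opposite to that of Fcer1a. Lat, the adaptor that gathers signalling proteins at the receptor, fell by 1.40 ± 0.11 in Y577F cells and by 1.06 ± 0.11 in FI-Delta cells (adjusted p = 4.04e-06 and 0.000111). Syk, the kinase that binds the gamma chain, rose by 0.97 in Y577F cells and changed by 0.39 in FI-Delta cells without a call. Lcp2, an adaptor downstream of it, and Stim1, the calcium store sensor, changed by 0.17 and 0.11 in Y577F cells without a call and rose by 0.73 and 0.55 in FI-Delta cells. At 72 h Fcer1g, Syk and Lat2 were higher in Y577F cells (0.53, 0.51 and 0.69) and Stim1 lower (-0.62). The Syk call at 72 h was lost without array 2 of that comparison. The 4 genes called higher over 72 h in Y577F cells became 2 without array 1 of that comparison, of the FI-Delta time comparison, of the 0 h comparison or of the 72 h comparison. The 1 called lower in FI-Delta cells became 2 without array 1 of that comparison.

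Among 17 measured genes of 18 listed as partners of GATA2 and lineage factors, 3 were called higher and 5 lower over 72 h in Y577F cells, and 2 higher and 6 lower in FI-Delta cells. Tal1 fell by 0.52 ± 0.08 in FI-Delta cells (adjusted p = 0.00238) and changed by -0.14 in Y577F cells without a call. It was higher in Y577F cells by 0.86 ± 0.08 at 72 h (adjusted p = 2.67e-05) and by 0.49 ± 0.07 at 0 h (adjusted p = 0.00634), and the 0 h call was lost without array 1 at 0 h. Cbfa2t3, a corepressor of the TAL1 complex, fell by 0.48 in Y577F cells and by 0.83 in FI-Delta cells. Cebpa, a factor of granulocyte development, fell by 0.51 in Y577F cells and by 0.86 in FI-Delta cells, and the difference between its changes was not called (0.35, adjusted p = 0.135). Cebpb, a factor of myeloid differentiation, rose by 1.36 in Y577F cells and by 0.68 in FI-Delta cells, and these rises differed (0.68 ± 0.11, adjusted p = 0.00252). Zfpm1, a GATA cofactor, fell by 0.61 in Y577F cells, a call lost without array 1 of that comparison, and by 0.49 in FI-Delta cells. Spi1, the factor PU.1, rose by 0.74 in Y577F cells and by 0.41 in FI-Delta cells. Neither difference between their changes was called (-0.12 and 0.33, adjusted p = 0.638 and 0.0948). Nfe2, a factor of the platelet and red cell lineages, fell by 0.58 in Y577F cells and changed by -0.06 in FI-Delta cells without a call.

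Mitf, a mast cell and pigment cell factor, and Runx1, a factor of blood cell development, were higher in Y577F cells at 72 h, by 0.80 ± 0.09 and 0.73 ± 0.11 (adjusted p = 8.76e-05 and 0.000748). For these and for Stat5a, a factor activated by IL-3 receptors, the change over 72 h was higher in Y577F cells, by 0.58, 0.70 and 0.71. Gata1 and Gata3, the other GATA factors of blood cells, are given outside the naming rule, after their values were seen, and were called in no comparison. The 6 genes called lower in FI-Delta cells became 3 without array 3 of that comparison, and the 5 called lower in Y577F cells became 2 without array 1. The 2 called higher in FI-Delta cells became 1 without either 72 h array, without array 2 or 3 of that comparison or without array 1 of the Y577F one.

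Mcpt8 and Gzmb lie on chromosome 14, in a cluster of granule serine proteases, with 7 protein-coding genes between them in RefSeq: Ctsg, Gzme, Gzmd, Gzmg, Gzmn, Gzmf and Gzmc. All 13 other genes listed for the cluster were measured, and over 72 h in FI-Delta cells 0 of them were called by limma, with changes from -0.15 to 0.20, and at an unadjusted p under 0.05 the count was also 0. Over all features 5.19% were called higher and 2.97% lower in that comparison. Ctsg, cathepsin G of neutrophil granules, was the only gene of the 13 called in any other comparison. It fell by 1.57 ± 0.10 in Y577F cells (adjusted p = 1.73e-06) and changed by 0.05 ± 0.11 in FI-Delta cells. In Y577F cells it was lower than in FI-Delta cells at 72 h (log2 -2.52 ± 0.10) and at 0 h (log2 -0.90 ± 0.09; adjusted p = 7.19e-08 and 0.000679). The called genes of the cluster thus followed 3 patterns. Gzmb fell more in FI-Delta cells and Mcpt8 fell in both lines. Ctsg fell in Y577F cells and was lower there than in FI-Delta cells at both times. Gzme, Gzmd, Gzmg, Gzmn, Gzmf and Gzmc, which also lie between Mcpt8 and Gzmb, were called in no comparison. Genes of such a cluster are similar in sequence, so the signal of a probe may include RNA of a relative.

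Other genes of histamine handling were not called where Hdc was. The 4 measured of 6 listed, the degrading enzyme Hnmt and the receptors Hrh1, Hrh2 and Hrh4, were not called in any comparison, with changes from -0.34 to 0.33, and 0 passed an unadjusted p under 0.05. The 3 measured inhibitors of granzyme B, Serpinb9, Serpinb9b and Serpinb6a, were not called either (-0.14 to 0.28; 1 passed an unadjusted p under 0.05, at 72 h).

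Over 72 h, genes of T and NK cells, the other main source of granzyme B, were called about as often as features in general. Of 14 measured, 1 was called higher and 1 lower in each line. Among all features 9.28% were called higher and 8.75% lower in Y577F cells, and 5.19% and 2.97% in FI-Delta cells. Between the lines at 72 h, 3 were called higher and 2 lower in Y577F cells, against 6.44% and 6.45% of features. The change over 72 h was called higher in Y577F cells for 2 and lower for 2, against 4.33% and 4.91% of features. Klrd1, an NK receptor chain, changed by -0.12 in Y577F cells without a call, fell by 0.59 ± 0.10 in FI-Delta cells and was higher in Y577F cells at 72 h (1.00 ± 0.09, adjusted p = 3.05e-05). Nkg7, a granule membrane protein of cytotoxic cells also found in other granulated cells, fell by 1.09 ± 0.15 in Y577F cells, changed by 0.45 ± 0.16 in FI-Delta cells without a call, and was lower in Y577F cells at 72 h (-1.89 ± 0.15, adjusted p = 8.82e-06). Prf1, perforin, and Gzma, granzyme A, are given outside the naming rule and were called in no comparison. The single calls of higher genes, Gzmk in Y577F cells and Cd3d in FI-Delta cells, were each lost without array 1 of the Y577F time comparison, and Cd3d also without 6 other arrays.

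**Figure D4:**
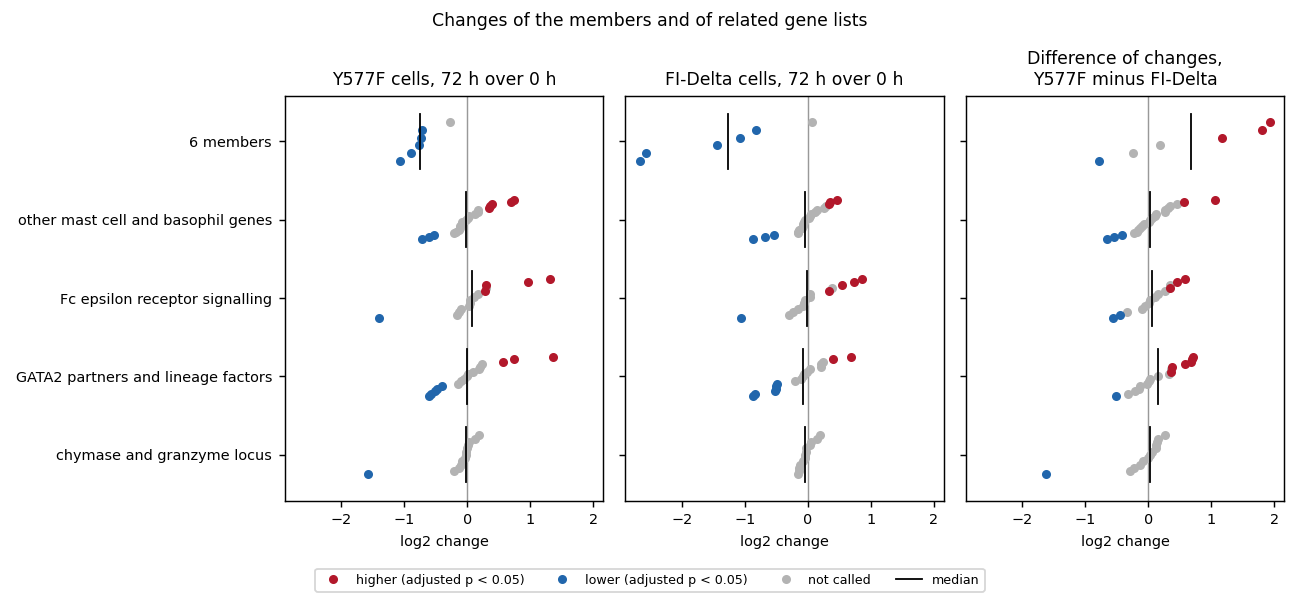
Log2 changes (x axis) of the 6 genes and of 4 related gene lists (rows) over 72 h in Y577F cells, over 72 h in FI-Delta cells, and the difference between these changes; red and blue points were called higher and lower, grey points were not called and the black bars are medians. The 6 genes have medians of -0.76 and -1.26 in the lines, while the medians of the lists in the lines lie between -0.07 and 0.08. The genes and the lists were chosen with earlier results of these data known.

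Markers of other blood lineages moved over the same comparisons. Of 11 neutrophil genes, 2 were called higher and 4 lower over 72 h in Y577F cells (median -0.05), and 10 higher and 0 lower by limma in FI-Delta cells (median 1.05; at an unadjusted p under 0.05 also 0 lower). At 72 h 10 of the 11 were lower in Y577F cells (median -2.86), and at 0 h 9 were (median -1.22). Of all features, 9.28% were called higher and 8.75% lower over 72 h in Y577F cells, and 5.19% and 2.97% in FI-Delta cells. Between the lines, 6.45% of features were called lower in Y577F cells at 72 h and 0.484% at 0 h. Ltf, lactoferrin, rose by 2.45 ± 0.23 in FI-Delta cells, against a change of 0.24 ± 0.22 in Y577F cells, and Camp, cathelicidin, was lower in Y577F cells at 72 h (log2 -3.94 ± 0.15). Hdc and these genes were thus lower in Y577F cells at the same times, and Cpa3, Gzmb and Fcer1a were higher. The part of neutrophil transcripts in the values of the 6 genes was not tested.

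Of 9 monocyte and macrophage genes, 8 were called higher over 72 h in each line, with medians of 2.09 in Y577F cells and 0.91 in FI-Delta cells. Without array 3 of the FI-Delta time comparison 6 were called there. At 72 h 7 were higher and 1 lower in Y577F cells (median 1.10). Of all features, 9.28% were called higher over 72 h in Y577F cells and 5.19% in FI-Delta cells. Between the lines at 72 h, 6.44% of features were called higher and 6.45% lower in Y577F cells. Ctss, the lysosomal protease cathepsin S, rose by 3.14 ± 0.09 in Y577F cells and by 1.48 ± 0.10 in FI-Delta cells. Fcer1g, Syk and Cebpb, which rose in Y577F cells, are also expressed by monocytes, and the part of such cells in those values was not tested.

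Eosinophil genes and megakaryocyte and erythroid genes gave mixed calls. Over 72 h, 9.28% of all features were called higher and 8.75% lower in Y577F cells, and 5.19% and 2.97% in FI-Delta cells. Of 7 eosinophil genes, 4 were called higher and 1 lower over 72 h in Y577F cells, and 2 higher and 0 lower by limma in FI-Delta cells (1 lower at an unadjusted p under 0.05). The 2 became 1 without array 2 or 3 of that comparison or array 1 at 0 h, and the 1 became 0 without either Y577F time array. Siglecf, an eosinophil surface lectin, rose by 0.66 in Y577F cells and by 0.87 in FI-Delta cells. Of 8 megakaryocyte and erythroid genes, 3 were called higher and 3 lower in Y577F cells, and 1 higher and 2 lower in FI-Delta cells. The 3 called higher became 1 without either Y577F time array, and the 1 became 0 without either 72 h array, without array 2 at 0 h, without array 1 of the Y577F time comparison or without array 2 or 3 of the FI-Delta one. Itga2b, the integrin alpha chain of megakaryocytes that early blood progenitors also express, fell by 0.85 ± 0.10 in Y577F cells and by 1.99 ± 0.11 in FI-Delta cells, with a difference of 1.14 ± 0.12 (adjusted p = 0.000148). Hba-a1, a globin, fell by 1.82 in Y577F cells and by 1.30 in FI-Delta cells. Vwf, the clotting factor of platelets and vessel walls, went the other way, rising by 1.04 in Y577F cells and by 0.38 in FI-Delta cells. Tfrc fell by 0.98 in Y577F cells and changed by 0.06 in FI-Delta cells without a call. Pf4, a platelet chemokine, and Epor, the erythropoietin receptor, were called higher in Y577F cells (0.44 and 0.33), and Klf1, an erythroid factor, and Gp9, a platelet glycoprotein, were called in neither line; these 4 are given outside the naming rule. The list thus moved in both directions, and its part in the values of the 6 genes was not tested.

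Finally, receptor chains for IL-3, GM-CSF and IL-5 were measured for 4 of 5 listed genes. At 72 h all 4 were higher in Y577F cells, by 1.33 for Csf2rb2, 0.71 for Il3ra, 0.54 for Csf2ra and 0.52 for Il5ra. In that comparison 6.44% of all features were called higher. Csf2rb2, the beta chain that serves IL-3 alone in mice, fell by 0.62 ± 0.09 in FI-Delta cells (adjusted p = 0.00145) and changed by 0.23 ± 0.09 in Y577F cells without a call. The difference of 0.85 ± 0.10 was called (adjusted p = 0.000426). Csf2ra, the GM-CSF alpha chain, rose by 1.59 in Y577F cells and by 0.98 in FI-Delta cells. At 0 h Csf2rb2 and Il3ra were already called higher in Y577F cells, by 0.48 and 0.38 (limma, adjusted p = 0.0118 and 0.0453). There 0.934% of all features were called higher. The Csf2rb2 call was lost in 3 of 10 fits leaving out an array, and the Il3ra call in 7. Csf2ra and Il5ra were not called at 0 h.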

How the data were processed

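Gene expression was measured in mouse FDB1 cells with 10 spotted two-colour oligonucleotide arrays. What the authors deposited are within-array normalized ratios, read here as log2 of Cy5 over Cy3; limma is named without version in the submitters' processing notes. The labels leave the log base, direction and background correction unstated. Medians of the arrays ranged over -0.016 to 0.0090, with an SD of 0.232 to 0.371. No intensities were used, so the main fit gave each ratio the same weight.

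Of 23040 spots, 1243 controls were left out. Probes of a gene were averaged, giving 20243 features; 16651 probes had 1 symbol, 137 several and 5009 none, and gene IDs of 15973 matched RefSeq. Signs were turned by the titles. The technical dye swap was averaged, and limma 3.58.1 (R 4.3.3) fitted the 9 hybridisations by 3 RNA-group coefficients plus a dye term (called in 146 features), 5 residual and 6.34 prior degrees of freedom. Tests were two-sided, Benjamini-Hochberg adjusted over all features within a comparison. Steps were tested on simulated data.

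The 6 genes in every comparison and the 3 genes most like each member were named. From each list, up to 4 called genes per comparison by size could be named. Not all of these are given in the text, so the list genes named are a selection. Members and lists were chosen with earlier results of these data known. With 2 cultures per line, p-values measure the spread between these cultures and arrays. RNA of a culture was on several arrays, and the main fit took hybridisations as independent, without a culture term. The p-values therefore do not measure the spread between further cultures of a line. Alternatives were 10 fits leaving out an array, the culture number as a block, no dye term, time and line arrays alone, array weights, the dye swap as separate arrays, scaling, median centring, robust moderation and probes kept apart.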

Additional observations from a re-analysis of the deposited data

Results flagged for a closer look

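The change over 72 h differed between the lines for 4 of the 6 genes, by the test of the difference itself (limma, adjusted over all features). Cpa3 and Gzmb fell less in Y577F cells than in FI-Delta cells, with differences of 1.80 ± 0.12 and 1.93 ± 0.14 on the log2 scale (SE; adjusted p = 1.05e-05 and 1.34e-05). For Fcer1a the difference was 1.18 ± 0.23 (adjusted p = 0.00848), and it was not called from the time arrays alone (0.80, adjusted p = 0.316). Hdc differed the other way, at -0.78 ± 0.09 (adjusted p = 0.000426), with both Y577F arrays below 0 and all 3 FI-Delta arrays above 0.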

How the results depend on the processing

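Each of the 30 changes (6 genes in 5 comparisons) was refitted under 19 alternatives. Of these 570 values, 545 kept their direction and side of the threshold, 16 lost the call, 1 gained it and 8 changed sign. Every call of the 6 genes over 72 h held in all 19. So did the called differences between the lines' changes of Cpa3, Gzmb and Hdc. The calls of Cpa3, Gzmb, Fcer1a and Hdc between the lines at 72 h also held in all 19. At 0 h the number of the 6 genes called was 4, against 0 without array 1 of that comparison, 2 without array 2 and 0 with the replicate block. The sign changes were in values never called. Mcpt8 between the lines at 72 h was -0.0041 and ranged over the left-out arrays from -0.048 to 0.124, at 0.0018 without array 1 and 0.124 without array 2 of that comparison, 0.024 and 0.043 without arrays 1 and 3 of the FI-Delta time comparison, 0.085 with array weights, 0.034 with the dye swap entered as separate arrays and 0.0073 with scaled arrays. Fcer1a over 72 h in Y577F cells ranged over the left-out arrays from -0.42 to 0.18, above 0 without array 1 of that comparison. Gata2 between the lines at 0 h was called with array weights only (0.43, adjusted p = 0.0314). The cause was not tested.

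Counts of called features ranged from 1949 to 4247 for Y577F cells over 72 h (3649 as reported), 887 to 3786 for FI-Delta cells (1652), 1403 to 5537 between the lines at 72 h (2609), 42 to 445 at 0 h (287) and 371 to 2475 for the difference (1871). Across the 2 culture pairs, deviations at 0 h and 72 h correlated at 0.31 over features with the dye term removed, from 1 pair only, so the numbers were not taken to pair the cultures. This correlation and the block rest on culture numbers that the labels attach to the opposite line on arrays between the lines with Y577F RNA in Cy5. With the culture number as a replicate block 42 features were called at 0 h and 1525 at 72 h. The block ended the 4 calls at 0 h and that of Gata2 at 72 h and changed no other call of the 6 genes.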
